A study of Mus musculus with 22 samples.

Results

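The regions described here carried an RNA polymerase II (PolII) peak late in G1 and none early in G1. They were chosen by detection: the peaks of the 14 post-mitotic PolII lists were merged wherever they overlapped by 1 bp or more, and a merged region was kept if at least 3 of the 4 late-G1 lists and none of the 4 early-G1 lists had a peak in it. This rule kept 2480 of 169774 merged regions (1.46%), called late-only regions below. The mirror rule, with at least 3 of 4 early-G1 lists and no late-G1 list, kept 5302 early-only regions (3.12%), and 27251 regions were in at least 3 of 4 lists of both stages. Both numbers depend on the lists: with equal list lengths the rules kept 1833 late-only and 2303 early-only regions, and without late-G1 control 3 they kept 1204 and 10061. Because the rule read the early-G1 and late-G1 lists, presence at those stages is a description and was not tested. Peaks of the 6 mid-G1 lists were no condition of the rule, but they entered the merging. They could thus join or widen regions, so that mid-G1 detection is not fully independent of the choice.

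The cells were G1E-ER4, mouse erythroblasts used uninduced, which the labels mark as -GATA1. Each CTCF allele, encoding an architectural protein, had been tagged at its C-terminus with an auxin-inducible degron (AID) and mCherry. All cells also carried retrovirally delivered OsTiR with GFP, the ubiquitin ligase component that lets auxin trigger degradation, so that the controls shared every allele and vector with the treated cells. Cells were arrested in prometaphase with nocodazole at 200 ng/ml, released, and sorted by DNA content and mCherry at 0, 60, 120 or 240 min, that is in prometaphase, early-G1, mid-G1 and late-G1. Auxin cells received auxin during the last part of the arrest and after release and were sorted as mCherry-negative, while control cells were not given auxin and were sorted as mCherry-positive. By the labels, early-G1 and late-G1 each had 2 control and 2 auxin libraries, and mid-G1 had 3 of each. The paper's reporting summary is not uniform on the library labelled late-G1 auxin 1. Its raw files name an auxin replicate 1 for late-G1, but its peak files and depths name a control replicate 1 instead. All late-G1 comparisons of auxin with control below follow the label, which could not be checked. The labels number the libraries as replicates of a group, and where they do not name separate cultures the p-values measure only the spread between these libraries.

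PolII is the enzyme that transcribes protein-coding genes. It leaves chromatin almost entirely during mitosis and reloads after it, first at promoters, from where it travels along the gene body to beyond the 3' end. ChIP-seq maps where it is bound, so a peak in a gene body or past its end can mark polymerase in transit or paused there. A peak within a gene or far from genes can also mark an enhancer or an unannotated transcript. These readings were not told apart here. The transcription start site (TSS) is the first base of a transcript.

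The post-mitotic lists held 50594 to 117125 peaks each, with 100031 to 107213 in early-G1. In late-G1, control 2, control 3, auxin 1 and auxin 2 held 80106, 117125, 88511 and 74154, so that 3 of the 4 late-G1 lists were shorter than every early-G1 list. Depth could be read from the peaks, because fold enrichment and p together give the reads under a summit: the background ran from 7.54 to 11.8 reads per kb in early-G1 and from 8 to 13.3 in late-G1. The list of mid-G1 control 1 stood apart, with 4.51 reads per kb and the fewest peaks. The tests and patterns of mid-G1 detection are given with and without it, but counts of mid-G1 lists per region only with it. The prometaphase lists held 2414 to 3918 peaks, of which only 1 to 3 per library touched a late-only region. The labelled cell type was checked on marker genes: a TSS of 9 of 10 erythroid precursor genes (among them Kit, Gata2, Tal1, Klf1 and Epor) had a peak in all 14 lists, while 8 of 10 marker genes of other cells, such as Csf1r and Cdh5, had a TSS peak in none. Of the other pair, Ptprcap had one in all 14, and the TSS of Pf4, a chemokine of megakaryocytes and platelets, was itself a late-only region.

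As examples of the sequence in these regions, 7 of those named below are printed from the mm9 reference. The one near Ssfa2 was named for its mid-G1 pattern, and the others for their late-G1 rank. The first pair are the 200 bases before a TSS that lies in a late-only region. Cenpf encodes a kinetochore protein and Tspan15 a tetraspanin of the cell membrane; their windows are chr1:191511966-191512165 (minus strand) and chr10:61693975-61694174 (minus strand). The others are the 200 bases around the summit of a region outside genes or past a 3' end. They lie at chr7:88870999-88871198 (plus strand; nearest coding TSS Homer2), chr2:79451386-79451585 (plus; nearest Ssfa2), chr9:42770222-42770421 (minus; past Arhgef12), chr5:3530594-3530793 (plus; past Cdk6) and chr13:64546317-64546516 (plus; past Cdk20). None of the 7 windows overlaps an annotated exon. Capitals mark matches, on either strand, to any of 10 searched motifs, where N is any base. These are AGATAA or TGATAA for GATA factors, CCACCC for KLF factors, GGGCGG for Sp factors, CCAAT for NF-Y, TATAAA for the TATA box, AATAAA for the polyadenylation signal, TGANTCA for AP-1, CCGGAAG for ETS factors and AGGNGGC for the core of the CTCF motif. The TATA and polyadenylation motifs can overlap.
Cenpf: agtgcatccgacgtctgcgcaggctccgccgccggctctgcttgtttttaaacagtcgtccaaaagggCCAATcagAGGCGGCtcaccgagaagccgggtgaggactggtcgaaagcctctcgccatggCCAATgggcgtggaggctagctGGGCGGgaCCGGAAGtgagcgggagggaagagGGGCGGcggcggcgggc
Tspan15: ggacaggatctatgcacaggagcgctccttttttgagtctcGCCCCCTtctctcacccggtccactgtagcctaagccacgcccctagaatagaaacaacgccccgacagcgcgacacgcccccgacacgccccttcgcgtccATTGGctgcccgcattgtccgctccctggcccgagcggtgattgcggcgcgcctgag
Homer2: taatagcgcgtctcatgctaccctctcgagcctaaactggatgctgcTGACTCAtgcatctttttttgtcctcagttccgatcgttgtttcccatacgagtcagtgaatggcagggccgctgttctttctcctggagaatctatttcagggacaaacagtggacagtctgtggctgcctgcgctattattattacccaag
Ssfa2: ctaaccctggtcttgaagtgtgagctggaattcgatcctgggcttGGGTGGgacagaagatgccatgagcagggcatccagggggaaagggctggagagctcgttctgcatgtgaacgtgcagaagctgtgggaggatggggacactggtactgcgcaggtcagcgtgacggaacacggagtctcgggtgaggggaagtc
Arhgef12: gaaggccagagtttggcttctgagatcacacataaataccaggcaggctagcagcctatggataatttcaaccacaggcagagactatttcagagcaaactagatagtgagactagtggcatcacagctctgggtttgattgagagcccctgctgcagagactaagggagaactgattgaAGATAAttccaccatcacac
Cdk6: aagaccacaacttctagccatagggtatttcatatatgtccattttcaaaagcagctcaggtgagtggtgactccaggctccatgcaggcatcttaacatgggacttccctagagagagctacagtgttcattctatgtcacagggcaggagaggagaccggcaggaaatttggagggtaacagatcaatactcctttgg
Cdk20: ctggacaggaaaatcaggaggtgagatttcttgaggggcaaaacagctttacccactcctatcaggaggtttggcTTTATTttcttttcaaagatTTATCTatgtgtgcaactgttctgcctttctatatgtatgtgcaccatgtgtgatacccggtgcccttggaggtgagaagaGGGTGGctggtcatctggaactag

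The Cenpf window held 20 CpG dinucleotides, with CCAAT and GGGCGG matches on its printed strand. The Tspan15 window held 20 as well. Their ratios of observed to expected CpG were 0.943 and 1.01. The window before the Dok2 TSS, not printed, held 2 CpGs (0.217) and none of the 10 motifs, so the printed pair does not stand for all TSS regions. The Homer2 window held 1 palindromic AP-1 match and 8 CpGs, the Cdk20 window 3 different motifs, and the Cdk6 window none of the 10. Over all late-only regions, the 200 bases around the summit had a median GC content of 48% against 46.5% for all merged regions and 45.5% for early-only regions. AGATAA or TGATAA occurred in 19.3% of late-only windows and in 17.6% of all merged windows, TGANTCA in 7.86% and 6.08%, CCACCC in 17.1% and 13.1%, AGGNGGC in 12.3% and 12.1%, and GGGCGG in 4.31% and 5.14%. The 65 late-only regions over a coding TSS were poorer in CpG than regions over a TSS that were present at both stages, with a median ratio of observed to expected CpG of 0.3 against 0.822, while the 65 early-only regions over a coding TSS had 0.246. GGGCGG occurred in 27.7% of the late-only, 4.62% of the early-only and 46% of the 8550 both-stage regions over a coding TSS, and TGANTCA in 13.8%, 9.23% and 2.8%. Low CpG and AP-1 matches were thus found in the regions of either single stage. A match is a description of the letters and no measure of binding.

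Late-only regions were narrower and of lower enrichment than regions of both stages, and mostly away from TSSs. Their median width was 621 bp, against 1906 bp for regions of both stages, 593 bp for early-only regions and 337 bp for all merged regions. Within the late-G1 lists they sat in the middle and lower ranks: their median rank fell at 63.1%, 48.6%, 60.7% and 65.1% of the list in control 2, control 3, auxin 1 and auxin 2, counted from the strongest. The median fold enrichment over input was 5.06, 5.42, 5.31 and 5.3 in the same order, whereas regions of both stages had medians from 7.95 to 9.95. In reads, the median summit held 14, 17, 12 and 12 reads over a local background of 1.77, 2.14, 1.42 and 1.4. The strongest single values were 15.5, 19.8, 19.1 and 13.3-fold. Early-only regions were of like strength in their own stage, with median folds of 4.79 to 5.31. At this depth, absence from an early-G1 list therefore means that fewer reads were there than the peak caller required, and not that PolII was absent.

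All 4 late-G1 lists contained 883 of the regions (35.6%), and 1597 were in exactly 3. The list that lacked a region was control 2 for 350, control 3 for 295, auxin 1 for 352 and auxin 2 for 600. At the threshold of the rule, the 1597 regions in 3 late-G1 lists had a median best -log10 q of 8.75, and the 4525 regions in 2 late-G1 lists and no early-G1 list had 6.99. A typical region just inside lay in an intron of Mthfd1l, a mitochondrial folate enzyme (chr10:6189266-6190479), at 4.7-fold in control 2, 5.74 in control 3 and 5.39 in auxin 1. Another lay in an intron of the integrin gene Itgb2 (chr10:77012832-77014071), at 5.74, 5.81 and 5.83-fold in control 3, auxin 1 and auxin 2. The pair just outside also lay in introns of Mthfd1l, one at 5.1-fold in control 3 and 4.56 in auxin 1 (chr10:6307191-6307357), the other at 4.7 in control 2 and 5.1 in control 3 (chr10:6314976-6315604).

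By position, gene bodies and the stretches beyond genes made up most of the set. Of the 2480 regions, 62.5% overlapped a protein-coding gene without touching a TSS, 12.6% lay up to 10 kb past the 3' end of a coding gene, 21.4% lay elsewhere, 2.62% (65 regions) covered a coding TSS and 0.927% another TSS. Among all merged regions the same classes took 77.5%, 8.73%, 7.43%, 5.73% and 0.617%. Early-only regions were more concentrated in gene bodies (86.2%) and rarer elsewhere (3.32%), and regions of both stages had 31.4% over coding TSSs. These shares are counts of regions, which are not replicates, and no test was made. Of the late-G1 summits, 51.5% fell in an intron, 34% between genes, 8.15% in an untranslated exon and 3.47% in a coding exon.

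**Figure D1:**
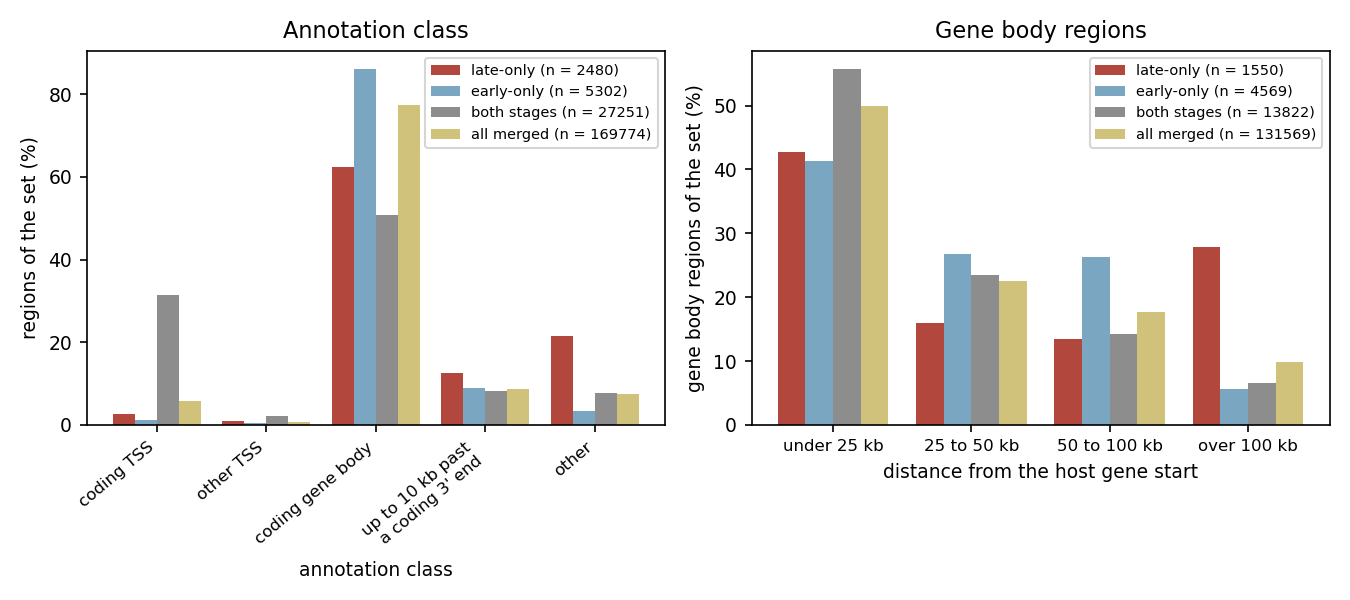
Left, percent of regions (y axis) in each annotation class (x axis) for late-only, early-only, both-stage and all merged regions; right, percent of gene body regions (y axis) by distance from the start of the host gene (x axis, kb). Regions over 100 kb from the host start made up 27.9% of late-only and 5.56% of early-only gene body regions.

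Within gene bodies, the late-only regions stood out at long distances. Of 1550 gene body regions, 27.9% lay over 100 kb from the start of the host gene, against 5.56% of 4569 early-only regions, 6.54% of those of both stages and 9.78% of all merged. The 50 to 100 kb range had the opposite order, with 13.4% of late-only and 26.3% of early-only regions. The medians were 33 kb (95% interval by order statistics 30.4 to 39.1) for late-only and 32.5 kb for early-only regions, and 42.8% and 41.4% lay within 25 kb. When peaks up to 1 kb apart were joined, the late-only median was 58.7 kb and that of the host length 111 kb. The 432 distant regions were spread over 170 genes, and the share was 24.2% without the 6 genes that held the most. The host gene exceeded 100 kb for 40.7% of late-only against 28.5% of early-only gene body regions. Regions past a 3' end differed more: their genes had a median length of 72.1 kb and 42.6% exceeded 100 kb, whereas the genes of early-only regions past a 3' end had a median of 23.3 kb and 4.03% exceeded 100 kb. For all merged regions past a 3' end the values were 28.2 kb and 12.7%.

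The starts of the host genes were then examined for early-G1 peaks. A TSS of 666 of 927 host genes of gene body regions (71.8%) had a peak in at least 3 early-G1 lists, and 231 (24.9%) had none in any early-G1 list. Over all merged gene body regions the shares were 74.5% and 22.4%, and over early-only regions 88.7% and 9.22%. Over regions of both stages they were 78.7% and 18.8%, so that late-only hosts had the lowest share with an early TSS peak. They also had the lowest share with a TSS peak in at least 3 late-G1 lists, 73% (677 genes). That late-G1 share was 73.9% for all merged, 85.9% for early-only and 78.1% for both-stage hosts. For regions past a 3' end the shares were 68.7% and 26.3% of 259 genes, against 75.8% and 21.3% for all merged regions. The nearest early-G1 peak was a median of 2.1 kb away, within 1 kb for 38.8% of the regions, and more than 10 kb away for 665 (26.8%). Regions past 3' ends were the most isolated class, with a median of 6.58 kb and 45.2% beyond 10 kb.

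The regions were spread over 982 protein-coding genes, of which 730 held 1 region and 45 held 5 or more. Counting also the genes followed by a region within 10 kb, 1166 of 22350 coding genes (5.22%) were touched. Fut8, the enzyme that adds the core fucose to N-glycans, held 30 (chr12:78340052-78577325). Asap1, an Arf GTPase-activating protein, held 25 (chr15:63920103-64214481), Sipa1l1, a Rap GTPase-activating protein, 24 (chr12:83270407-83552769), and Hk2, hexokinase 2, 18 (chr6:82675019-82724448). Ptpre, a receptor tyrosine phosphatase (chr7:142729507-142877977), and Sgms1, a sphingomyelin synthase (chr19:32197217-32464204), held 15 each. These genes were long, 237, 294, 282, 148 and 267 kb, except Hk2 at 49.4 kb. Their TSSs had a peak in every one of the 14 lists apart from Asap1, whose annotated coding TSSs had none in any list.

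Fut8 shows the pattern. Its late-only regions ran from 13.5 to 239 kb from the gene start, with a median of 139 kb. In early-G1, peaks covered 9.28%, 9.59%, 5.43% and 3.97% of the gene before its midpoint in control 1, control 2, auxin 1 and auxin 2, and 0.316%, 0%, 0.154% and 0% of the part beyond it. In late-G1 they covered 13.8%, 8.86%, 8.98% and 5.05% of the part beyond the midpoint in control 2, control 3, auxin 1 and auxin 2. The mid-G1 lists covered 1.97%, 23.6% and 1.75% of that part in the controls and 6.82%, 9.27% and 0.453% in the auxin libraries, so that the mid-G1 libraries differed widely among themselves. The gene was named for regions that early-G1 lists lack and late-G1 lists hold, so the low early-G1 and high late-G1 cover follow from the choice. All 30 regions were found in at least 1 mid-G1 list and 9 in at least 4.

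**Figure D2:**
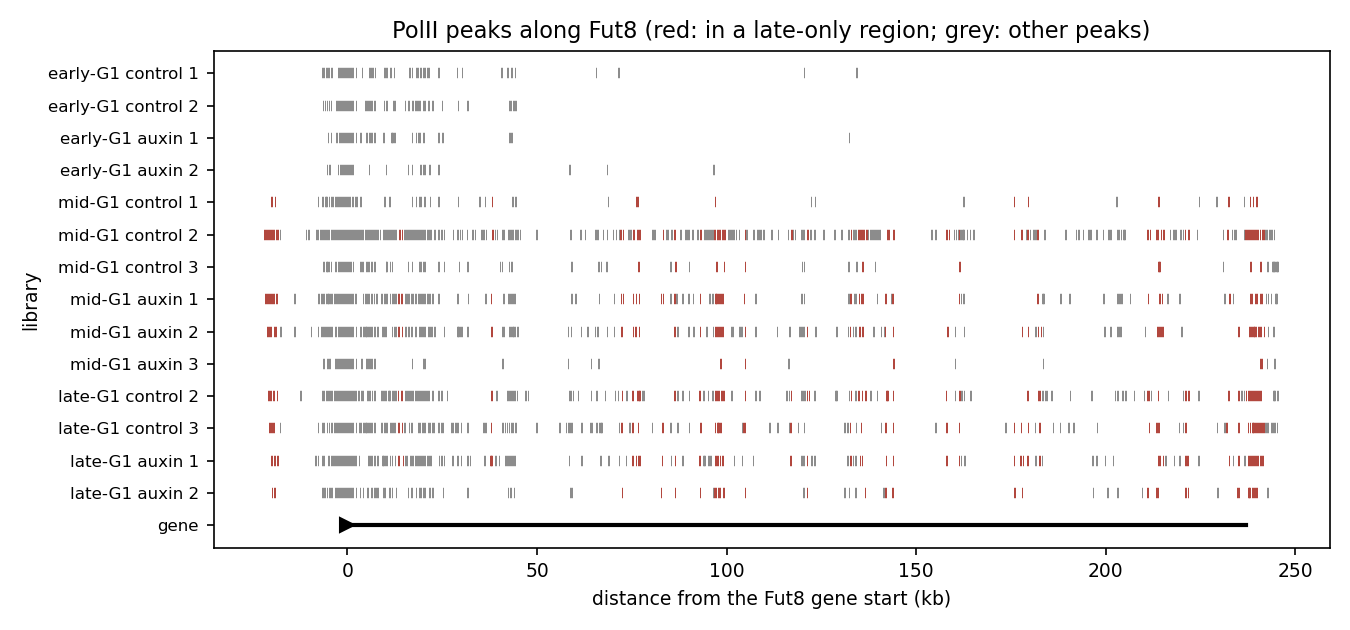
PolII peaks along Fut8 in the 14 post-mitotic lists (rows), by distance from the gene start in kb (x axis); red marks peaks in late-only regions and grey all other peaks. Early-G1 peaks lie mainly near the gene start, and mid-G1 and late-G1 peaks reach past the gene end.

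In the other genes the regions lay further along or closer together. In Sipa1l1, the part beyond the midpoint had no peak in any of the 4 early-G1 lists, was covered for 0.147% to 1.42% of its length in the 6 mid-G1 lists, and for 13.3%, 7.32%, 6.55% and 3.89% in late-G1 control 2, control 3, auxin 1 and auxin 2. Only 9 of its 24 regions were in any mid-G1 list. In Hk2 the same part was covered for 3.55%, 3.54%, 0% and 0% in early-G1, for 0% to 11.2% in mid-G1, and for 65%, 40.1%, 47.7% and 35.4% in late-G1. Here 7 of 18 regions were in a mid-G1 list and none in 4 or more. These genes too were named for their late-G1 peaks, so that their high late-G1 cover is a description of the choice. In the other genes, 23 of 25 regions in Asap1, 14 of 15 in Ptpre and 13 of 15 in Sgms1 were in at least 1 mid-G1 list. In Ptpre the part beyond the midpoint was covered for 43.5% and 49.4% in the late-G1 controls and for 14.2% and 11.7% in the auxin libraries. These late-G1 values do not overlap, whereas in mid-G1 the controls (7.82%, 29.9% and 17.2%) and auxin libraries (10%, 14.9% and 4.95%) did. No test was made of a single gene. How often other genes show such a separation was not counted, so it is not read as an auxin difference.

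Averaged over the 45 genes that held 5 or more late-only regions, cover by peaks declined along the gene in early-G1 and did not in late-G1. Each gene was divided into 10 equal bins. The last 3 bins were covered for 5.91%, 5.42%, 4.57% and 4.41% in early-G1 control 1, control 2, auxin 1 and auxin 2. In late-G1 the values were 23.7%, 19.7%, 16.9% and 14% in control 2, control 3, auxin 1 and auxin 2. The ratio of the last 3 to the first 3 bins ran from 0.447 to 0.543 in early-G1 and from 0.978 to 1.36 in late-G1, which the choice of genes favours. In mid-G1, which entered the choice only through the merging, the ratio was 0.79, 0.94 and 0.851 in the controls and 0.893, 1.02 and 0.736 in the auxin libraries. Because the choice of genes lowers the early-G1 and raises the late-G1 ratios, the place of the mid-G1 ratios between them supports no order of the stages. Control and auxin libraries overlapped at mid-G1.

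**Figure D3:**
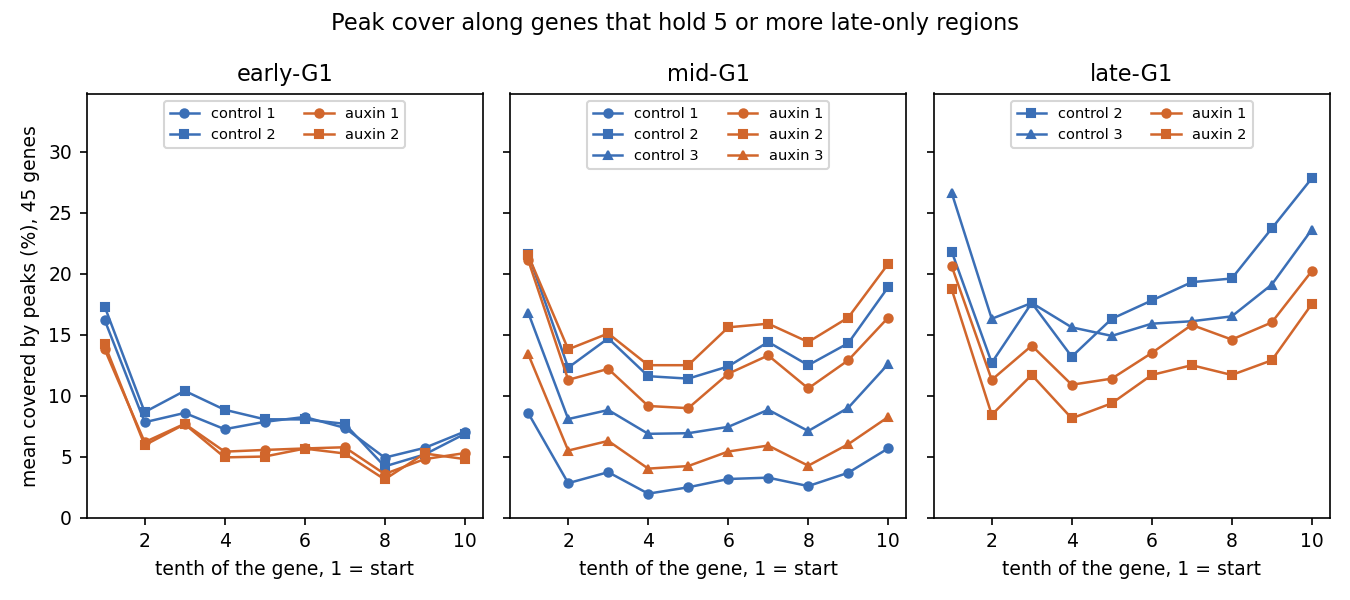
Mean percent of each of 10 equal gene bins covered by PolII peaks (y axis) along the 45 genes holding 5 or more late-only regions (x axis, bin 1 at the gene start), 1 line per library, blue control and orange auxin. In the last bin, early-G1 libraries lie at 4.81% to 7.06% and late-G1 libraries at 17.5% to 27.8%.

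Over TSSs, 65 regions marked 64 genes, and 15 of these genes also held a late-only region in or just past the body. The 8 of best mean late-G1 rank were Anxa2, Dok2, 4933413G19Rik, Cenpf, Etv4, Tspan15, Slfn10-ps and Egfl7. Anxa2, annexin A2, a calcium-dependent membrane-binding protein (chr9:69301381-69302473, summit in an intron 58 bp from a TSS), was the strongest, at 13.7, 11.2, 17.8 and 13.3-fold in late-G1 control 2, control 3, auxin 1 and auxin 2. In mid-G1 it was at 11.4-fold in control 3, and at 7.74, 8.46 and 18.9-fold in the auxin libraries, with no peak in controls 1 and 2. No early-G1 peak lay within 17.4 kb. Cenpf (chr1:191511710-191512386, untranslated exon) was at 8.18, 12.4, 6.23 and 7.27-fold in late-G1, in the same order, and in mid-G1 only at 5.24 in control 3 and 3.9 in auxin 2. Its nearest early-G1 peak was 680 kb away.

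Etv4, an ETS transcription factor (chr11:101646084-101646690, untranslated exon), was at 6.14, 13.7, 7.88 and 7.5-fold in the late-G1 lists, and in 4 of 6 mid-G1 lists at 6.04 to 8.98-fold. Tspan15 (chr10:61693793-61694147, coding exon) was at 7.59, 6.7, 10.4 and 6.66-fold. Slfn10-ps, a Schlafen family pseudogene annotated here as coding (chr11:82853273-82854376), was in all 6 mid-G1 lists at 5.91 to 9.03-fold and in late-G1 at 6.31, 10, 6.13 and 6.78-fold. Since it has close paralogs, its reads may be lost to the authors' filter on mapping quality or misplaced. Dok2, an adaptor of tyrosine kinase signalling in blood cells (chr14:71174043-71174486), and Egfl7, a secreted protein best known from endothelium (chr2:26439238-26440055), were marked at an internal TSS, 8.42 and 4.11 kb from the gene start, with early-G1 peaks 1.31 and 2.1 kb away. Control and auxin folds overlapped in late-G1 at Anxa2, Dok2, Etv4, Tspan15 and Slfn10-ps. At Cenpf, Egfl7 and 4933413G19Rik (chr6:128324932-128327480, function not known) both controls were above both auxin libraries. The same order held at Rptor, Prkca, Arhgef12, Cdk6 and Cdk20, named below, but not at Aldh3a2, Slc22a23 or Homer2. At Depdc5 a control and an auxin value were equal as printed. The share of all regions with such a separation was not counted, so it is not read as an auxin difference. None of the 8 TSS regions was called by the test across all regions given below. Pf4, chosen after its values were seen because it is a marker of another cell type, was at 7.36, 6.18, 6.13 and 3.79-fold; whether other cells contributed to it was not tested.

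**Figure D4:**
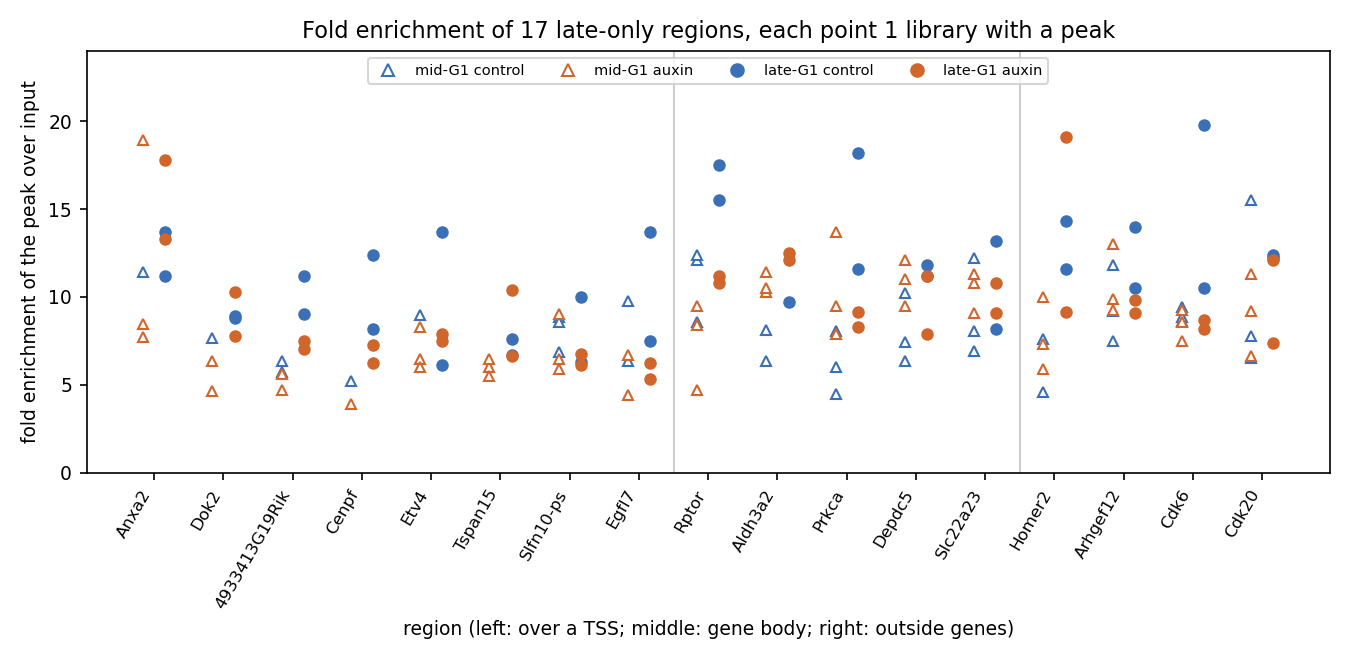
Fold enrichment over input (y axis) of the strongest late-only regions by class (x axis), each point 1 library with a peak; triangles are mid-G1 and circles late-G1, blue control and orange auxin. Libraries without a peak have no point; late-G1 values lie between 5.34 and 19.8-fold.

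The 5 strongest gene body regions were those of Rptor, Aldh3a2, Prkca, Depdc5 and Slc22a23. Rptor encodes Raptor, a subunit of the growth regulator mTORC1, and Depdc5 a subunit of GATOR1, which restrains it. At Rptor (chr11:119759967-119766678) the fold was 15.5, 17.5, 10.8 and 11.2 in late-G1 control 2, control 3, auxin 1 and auxin 2, and 12.1, 12.4, 8.57, 9.46, 8.4 and 4.73 in mid-G1 controls 1, 2, 3 and auxin 1, 2, 3. At Depdc5 (chr5:33334390-33338827) it was 11.2, 11.8, 11.2 and 7.91 in late-G1 and 6.34 to 12.1 in mid-G1. Rptor, Depdc5 and the transporter gene Slc22a23 (chr13:34268517-34273773) shared a feature the rule did not use: the region overlapped the end of the gene and its summit lay beyond it. Among all gene body late-only regions, 75 (4.84%) reached past the 3' end of the host, against 0.81% of early-only and 2.57% of all merged gene body regions, while regions of both stages had 18.2%.

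Prkca, protein kinase C alpha, had its region 121 kb into a gene of 411 kb (chr11:108083990-108085048), at 11.6, 18.2, 8.29 and 9.16-fold in late-G1 and in all 6 mid-G1 lists at 4.49 to 13.7-fold, with the nearest early-G1 peak 70.3 kb away. Aldh3a2, a fatty aldehyde dehydrogenase, was in 3 late-G1 lists at 9.7, 12.1 and 12.5-fold and absent from control 3, the deepest library (chr11:61040268-61040704). The 4 strongest regions outside genes were near Homer2, Arhgef12, Cdk6 and Cdk20. The region 19288 bp from the TSS of Homer2, a postsynaptic scaffold protein (chr7:88870701-88871530), was at 11.6, 14.3, 19.1 and 9.16-fold in late-G1 and in 5 mid-G1 lists at 4.59 to 10-fold. The region that begins 29 bp past the end of Arhgef12, an exchange factor for RhoA (chr9:42768938-42771895), was at 10.5, 14, 9.1 and 9.83-fold. The one 2867 bp past Cdk6, the G1 cyclin-dependent kinase (chr5:3526086-3532906), was at 10.5, 19.8, 8.71 and 8.2-fold, and the one 4997 bp past Cdk20, a kinase of the same family (chr13:64546026-64547084), at 12.4, 12.2, 12.1 and 7.37-fold. The last 3 were in all 6 mid-G1 lists. These 9 regions had 4 late-G1 peaks each except that of Aldh3a2.

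Mid-G1 detection was no condition of the rule, although mid-G1 peaks entered the merging of regions. It asks whether a region that appears by 240 min is already present at 120 min. Late-only regions were detected at 12.7%, 42.9% and 43.6% in the 3 control lists and at 51.1%, 59.5% and 32.3% in the 3 auxin lists. Early-only regions were detected in the same lists at 3.36%, 22.4% and 22.5%, and at 24.9%, 33% and 11.1%. All merged regions were detected at 13.1%, 29.6% and 31.3%, and at 30.8%, 37.1% and 21.9%, so that late-only regions lay above this background in 5 of 6 lists and not in control 1, and early-only regions lay below it in 6 of 6. Late-only regions were more often detected than early-only regions in 6 of 6 libraries, by 20.8 percentage points ± 6.2 (SD, n = 6). The exact two-sided sign-flip permutation test gave p = 0.031, the smallest it can give. Both sets were fixed lists read in the same 6 libraries, so p covers only the spread between libraries. The test does not account for the part that mid-G1 peaks had in forming the regions of both sets. Nor does it account for other differences between the sets, such as strength or width, that recur in every library. With both sets restricted to gene bodies the difference was 18.2 points (exact sign-flip p = 0.031, n = 6), to regions past 3' ends 27.9 points and to regions elsewhere 14.6 points, again in 6 of 6 libraries each. This restriction was added after seeing the data. Without mid-G1 control 1 it was 23.1 points, in 5 of 5 libraries. The control library 1 that stood lowest for both sets was also the shallowest.

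**Figure D5:**
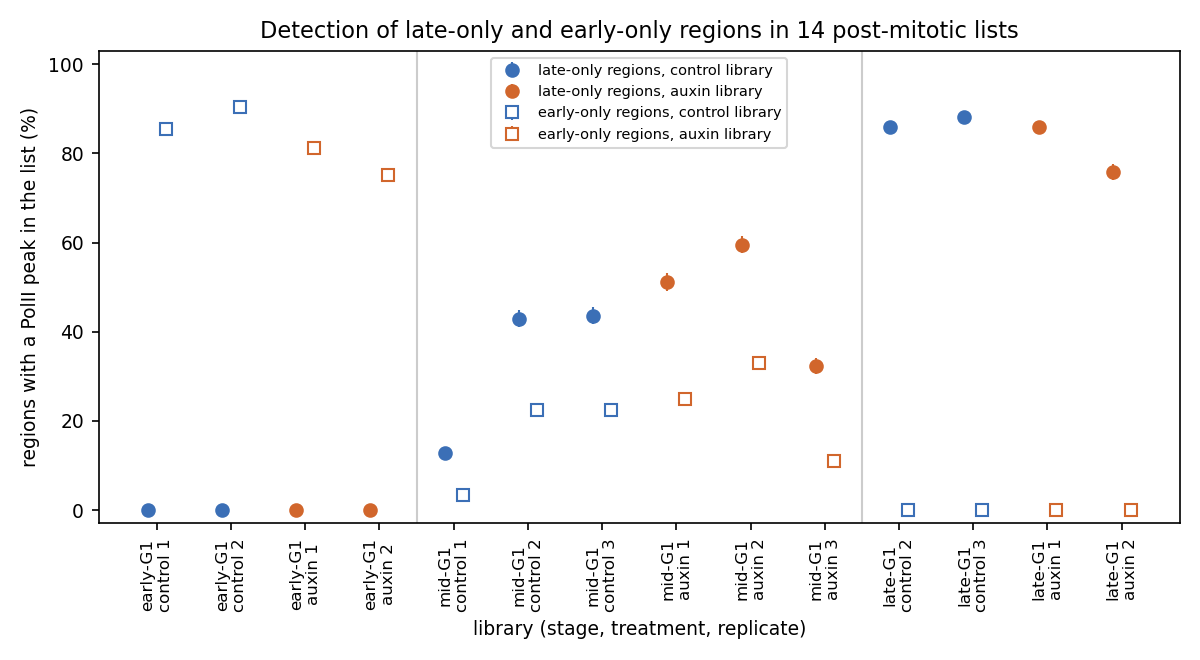
Percent of late-only (filled) and early-only (open) regions with a PolII peak (y axis) in each of the 14 post-mitotic lists (x axis), blue control and orange auxin; bars, mostly hidden by the symbols, are 95% Wilson intervals, which cover counting error only. Values of 0 at early-G1 or late-G1 follow from the rules; in mid-G1, late-only regions lie above early-only regions in every library.

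In all, 2046 late-only regions (82.5%) were in at least 1 mid-G1 list, 726 (29.3%) in at least 4 and 139 in all 6, while 434 (17.5%) were in none. The shares for early-only regions were 59.2% in at least 1, 6.68% in at least 4 and 40.8% in none, and for all merged regions 61.1%, 19.2% and 38.9%. In all 6 lists were 5.6% of late-only and 10.4% of all merged regions. Regions past 3' ends were detected at 23.7% to 70.8% over the 6 lists (median 60.6%) against 10.6% to 56.5% (median 39.6%) for gene body regions. Without mid-G1 control 1 the low ends were 47.4% and 26.3%. In at least 4 mid-G1 lists were 49.7% of the regions past 3' ends and 23.4% of the gene body regions. The 65 TSS regions were detected at 7.69% (33.8% without mid-G1 control 1) to 70.8%, with 11 in no mid-G1 list. Among these were Apobec3, a cytidine deaminase that restricts retroviruses, and Sla2, an adaptor of antigen receptor signalling, both found in all 4 late-G1 lists and named after their values were seen. In gene bodies, by distance from the host start, detection had a median over the lists of 36.8% within 25 kb, 33.8% from 25 to 50 kb, 43% from 50 to 100 kb and 45.9% beyond, with ranges that overlapped widely.

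Whether loss of CTCF shifts the appearance of these regions was asked first by detection in mid-G1. The share detected was 33.1% ± 17.6 in control and 47.6% ± 13.9 in auxin libraries (mean ± SD, n = 3 each), a difference of 14.5 points that did not pass the test (exact two-sided permutation test, p = 0.4; the smallest p that 3 against 3 allows is 0.1). Without mid-G1 control 1 the difference was 4.36 points. Of the 2046 late-only regions in any mid-G1 list, 2 (0.0978%) were in all 3 control lists and no auxin list. This share is near the background of 0.082% over 103649 regions in any mid-G1 list. In all 3 auxin lists and no control list were 44 (2.15%), against a background of 0.721%. The background regions were not matched to late-only regions in strength or in how many lists held them. The difference between these shares was not tested. These counts depend on the shallow control: without it 30 regions were in both control lists and no auxin list (1.48% of those detected; background 1.29%), and 48 were in all 3 auxin lists and no control list (2.37%; background 0.761%).

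The control-only pair lay 1892 bp past Myo18a, an unconventional myosin (chr11:77681375-77683356, at 5.19, 4.24 and 5.71-fold in mid-G1 controls 1, 2 and 3), and near the RNA-modifying gene Thumpd3 (chr6:112993729-112994666, at 6.03, 3.93 and 4.26-fold). Both were also absent from late-G1 auxin 1 and present in late-G1 auxin 2. The 3 strongest auxin-only regions were that near Ssfa2 (chr2:79451083-79451760), at 4.57, 3.98 and 3.97-fold in mid-G1 auxin 1, 2 and 3, one in an intron of Patl2, an RNA-binding protein (chr2:121951376-121952383), at 6.45, 8.06 and 6.3-fold, and the Tspan15 promoter, at 6.02, 6.45 and 5.51-fold. All 3 were in every late-G1 list of either condition. At Ssfa2 the late-G1 folds were 10.5, 8.61, 8.68 and 8.75, so that control and auxin values overlapped.

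In late-G1 itself, strength was compared by the rank of the fold enrichment within each library. The scale was -log2, where 1 unit is a halving of the rank number and a higher value a better rank. The lists detected 44759 regions in control 2, 73763 in control 3, 45158 in auxin 1 and 38648 in auxin 2. A mid-list region has a larger rank number in a longer list, so the differences below also carry list length. limma tested 24676 regions present in all 4 late-G1 lists, including 883 of the 2480 late-only regions. No region was called at an adjusted p under 0.05 (0%), and none of the late-only regions was, with a smallest adjusted p of 0.887 among them. At an unadjusted p under 0.05, 827 regions were higher and 535 lower with auxin, and 53 and 16 of the late-only regions. The differences of late-only regions, auxin minus control, ran from -1.32 to 1.81 with a median of 0.17 (562 above and 321 below 0), where the median over all regions tested was 0.03, and the median standard error was 0.42. When ranks were turned into normal scores, which scale the rank by the length of the list, both medians were below 0 (-0.23 and -0.22). The direction of these medians thus depended on the scale. Cdk6 had a difference of -0.49 ± 0.37 (SE; adjusted p = 0.914), Anxa2 0.59 ± 0.41 (adjusted p = 0.914) and Egfl7 -0.87 ± 0.50 (adjusted p = 0.887).

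This absence of calls changed with the control libraries in the fit, most of all when late-G1 control 2 was left out. Without that library, limma called 1054 regions higher (3.98% of 26508 tested) and 512 lower, and among 1233 late-only regions 89 were higher and 4 lower. That fit has 1 control library, control 3, assumed to vary as the auxin pair does, and its list was the longest of late-G1. Whether the change comes from control 2 or from control 3 was not tested. Without control 3 instead, 27 and 7 regions were called, among them 1 late-only region past Entpd6, a nucleotide phosphatase (chr2:150597839-150599307), lower by 1.99 (SE 0.46, adjusted p = 0.0328), and without either auxin library none was. Over mid-G1 and late-G1 together, limma tested 16459 regions in all 10 lists, among them 113 late-only regions. It called 24 higher and 15 lower (0.237%), none of them late-only, where the smallest adjusted p was 0.278 and 4 and 9 regions had an unadjusted p under 0.05 in the higher and lower direction. No region was called for a difference of the auxin contrast between late-G1 and mid-G1 (0%; smallest adjusted p 0.486 over all regions and 0.938 over late-only regions), with 415 and 375 regions, 7 and 1 of them late-only, at an unadjusted p under 0.05. Without late-G1 control 2, 1 late-only region was called over both stages, in the body of Cd200r4, a receptor gene (chr16:44827956-44829422), higher by 1.26 (SE 0.24, adjusted p = 0.0392).

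The gene lists are read against the 5.22% of coding genes that held a late-only region or were followed by one. With 0 to 2 genes per list, the shares of the 3 lists that held any (7.41%, 12.5% and 15.4%, in the order below) rest on too few genes to set them apart from it. Among 27 genes of the G1 to S transition and replication, which includes the cyclins, Mcm helicase subunits and E2f factors, 2 did: Cdk6, with 5 regions from 154 to 186 kb from its start, and Ccnd3, cyclin D3, with 1 at 10.6 kb. The TSSs of 23 of the 27 had a peak in all 14 lists. Among 16 annotated erythroid maturation genes 2 did, Bcl2l1, which encodes the survival factor Bcl-xL, with 6 regions from 14 to 39.3 kb from its start, and Trim58, a ubiquitin ligase, with 1. Among 13 annotated progenitor regulators 2 did, the transcription factors Runx1, with 5 regions from 21.5 to 120 kb, and Ikzf1, with 1 at 83.1 kb. None of 13 immediate early genes, such as Fos and Egr1, and none of 5 aryl hydrocarbon receptor targets did. Bcl2l1 and Runx1 regions were in 0 to 3 and 0 to 4 mid-G1 lists, and those of Cdk6 in 0 to 6.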

How the data were processed

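PolII ChIP-seq of sorted cells was analysed from 18 deposited peak lists, 14 of them post-mitotic. The input samples entered through the authors' peak calling only. The labels give 1 input per stage, and the paper states that the inputs used for calling matched the cell cycle stage. The lists of a stage thus shared an input and are not fully independent of each other. The effect of this was not tested. Per the paper's methods and the labels, the authors aligned reads to mm9 with Bowtie2 2.2.9 (local mode), removed alignments with a mapping quality under 10 and PCR duplicates (SAMtools 0.1.19), removed mitochondrial, random-contig and blacklisted reads (bedtools 2.27.1) and called peaks with MACS2 2.1.0 per library against input at a q cutoff of 0.01, without pooling replicates; 1 late-G1 replicate was left out by the authors. The deposited values per peak are a fold enrichment (a ratio over local background), -log10 p and -log10 q, and a score that the authors' caller derives from q; the score was not used. No read counts were analysed: the reads under each summit were solved from the fold and -log10 p, and came out whole within 0.05 for 100% of peaks in each list, at 3 significant digits.

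Peaks were merged at 1 bp of overlap, and classes were taken from the GENCODE vM1 annotation of mm9, in this order: coding TSS, other TSS, overlap with a coding gene, up to 10 kb past a coding 3' end, other. A region's host is the coding gene of longest overlap. A region's value in a library is its highest fold. Sequences came from the mm9 (NCBIM37) reference. Auxin contrasts used limma 3.58.1 (lmFit and eBayes, Benjamini-Hochberg over all regions tested) on the -log2 rank within a library, for regions present in every library of the fit; shares used exact permutation tests. Named regions are the 8 over a TSS, 5 in gene bodies and 4 outside genes of best mean late-G1 rank, the 5 genes with most regions (6 with a tie), up to 3 per mid-G1 pattern, called regions and 2 on either side of the threshold. The set, the gene lists and the tests were chosen with earlier results of these data known. Scripts were tested on simulated data. Intervals cover counting error only. Pairing was checked by replicate number. Alternatives were a stricter q, equal list lengths, other merging, all 4 lists required, other rank scales, regions in all but 1 library, and each library left out. Analysis used Python 3.11.15 with scipy 1.17.1 and R 4.3.3.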

Additional observations from a re-analysis of the deposited data

How the results depend on the processing

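The higher mid-G1 detection of late-only than early-only regions kept its direction in every alternative, at 20.1 to 28.6 points with stricter peaks, equal lists or other merging, and at 18 to 27.1 points with 1 library left out, where 5 mid-G1 libraries cannot give a p under 0.0625. The auxin difference in mid-G1 detection stayed above 0 without passing its test, from 4.36 to 22.2 points with 1 library left out. The number of late-only regions was 1847 at a -log10 q of 5 or more and 1833 with equal lists, fell to 1128 when peaks up to 1 kb apart were joined and to 883 when all 4 lists were required, and was 1204 to 3029 with 1 library left out. The number of early-only regions was 4207, 2303, 1296 and 1694 in the same order, and 2448 to 10061 with 1 library left out.

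Class shares moved beyond their interval as follows. Gene bodies took 58.5% at the stricter q, 56.9% with equal lists, 58.8% with joined peaks and 55.7% with all 4 lists; regions elsewhere took 24%, 24.2%, 23.8% and 24.6%. Coding TSSs took 3.93%, 4.34% and 3.62% under the last 3, and regions past 3' ends 15.4% with all 4 lists. The median distance from the host start was 27.8 kb with equal lists, 58.7 kb with joined peaks and 41.8 kb with all 4 lists, and the median host length 59 and 111 kb under the first pair. Of 21 named regions, 20, 20, 21, 19 and 18 stayed late-only at the stricter q, with equal lists, at 100 bp of overlap, with joined peaks and with all 4 lists.

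For auxin in late-G1, leaving out 1 library gave 0 to 1566 calls, 0 to 93 of them late-only. Over mid-G1 and late-G1, where 39 regions were called, a normal score gave 0 calls, the rank of -log10 p 69, and leaving out 1 library 9 to 135, with 0 to 1 late-only. The difference of the contrast between stages gave 0 to 12 calls, 0 to 0 late-only. The replicate block gave 18 calls over both stages and none late-only; for mid-G1 detection it gave the same 14.5 points (exact sign-flip p = 0.5, smallest possible 0.25). Same-numbered mid-G1 libraries correlated in their deviations at 0.096, 0.113 and 0.288, and differently numbered ones at 0.11, 0.038, -0.12, -0.135, -0.187 and -0.199. The labels do not say what equal numbers share, so the main tests did not take them as pairs. A shared effect of equal numbers was not tested. Within late-G1, no paired analysis was possible because control and auxin libraries share fewer than 2 numbers. Depth limits what absence from a list can show: late-only summits held a median of 12 to 17 reads. The causes of these changes were not tested.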

Other observations

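Late-only regions also formed clusters outside coding genes. Upstream of Fut8, 13 regions that were assigned to no gene had Fut8 as the nearest coding TSS, and 8 each had Kif20b, a mitotic kinesin, and Gm10941 as nearest. A second kind of cluster lay in gene families: near Serpinb9d, Serpinb9e and Serpinb9f on chromosome 13, tandem copies of a protease inhibitor gene, late-only regions lay over a TSS, in gene bodies, past 3' ends and between genes. Reads that fit several such copies may be lost to the authors' filter on mapping quality or placed on the wrong copy. The values of these regions are uncertain for that reason.

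The share of merged regions that were late-only ran from 0.958% on chromosome X to 1.84% on chromosome 7, around the 1.46% over all chromosomes.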
